A study of Mus musculus with 47 samples.

Results

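The comparison described here asks, gene by gene, whether 44% fat chow changed the gonadal fat pad differently in NZO/HlLtJ females than in C57BL/6J females. It rests on 16 of the 47 libraries of the series, those whose titles end in F for these strains, with 4 libraries in each of the 4 groups, and it covers all genes. The quantity tested for each gene is the diet effect in NZO/HlLtJ (44% minus 10% fat, log2) minus the diet effect in C57BL/6J. A value above 0 means that the level on 44% fat, relative to 10% fat, was higher in NZO/HlLtJ than in C57BL/6J.

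All mice were labelled wild type and untreated. The groups were C57BL/6J females on 10% fat + fiber, C57BL/6J females on 44% fat + fiber, NZO/HlLtJ females on 10% fat + fiber and NZO/HlLtJ females on 44% fat + fiber. The diet, called high fat and high sugar for the 44% arm, began when the mice were 6 weeks old and collection was at 15 weeks, so every group shared its age and the added fiber. The third strain, CAST/EiJ, and the male libraries enter the shared estimate of spread, the filter on low counts and the scaling between libraries. The male libraries also enter a side-by-side comparison. The labels do not say that each library came from its own animal, so p-values measure the spread between libraries, which may be in part technical.

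NZO/HlLtJ is an inbred strain that becomes obese and can become diabetic, while C57BL/6J is the common reference strain, which gains fat on high-fat chow. White fat stores triglyceride in adipocytes and secretes hormones such as adiponectin. When a fat pad expands past what its adipocytes can hold, macrophages are known to gather around dying adipocytes and take up their lipid. A whole fat pad also holds blood vessels, a mesothelial surface, progenitors and immune cells, and in such bulk tissue fewer cells of a type and less RNA per cell cannot be told apart.

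The 16 libraries held between 29533647 and 47490505 expected counts, and levels are given below as CPM, the gene's share of a library's counts scaled to a common total. Adipocyte markers were present throughout: Adipoq lay between 801 and 3090 CPM and Plin1 between 859 and 1870 CPM over the 16 libraries. Several libraries stood apart from their groups. In C57BL/6J on 10% fat, the summed level of 12 skeletal muscle genes was 70, 29.8, 395 and 12.1 CPM in replicates 1 to 4, against 16.2 to 79.1 CPM in the other 12 libraries. On the second principal component of the 16 libraries, replicate 2 of that group scored -11.5, whereas its other 3 libraries scored 30.7 to 38.6 and the C57BL/6J libraries on 44% fat -35.5 to -15.4. Replicate 3 of C57BL/6J on 44% fat had a summed B and plasma cell level of 1160 CPM, against 417 to 766 CPM in the other 15. The share of counts from mitochondrially encoded genes was 7.87 to 8.5% in C57BL/6J on 10% fat, 5.32 to 7.34% in C57BL/6J on 44% fat and 4.07 to 4.81% in the 8 NZO/HlLtJ libraries. Replicate 1 of NZO/HlLtJ on 44% fat had a summed T and NK cell level of 149 CPM, against 15.8 to 69.1 CPM in the other 15. The part of these differences in the results was not tested, and the count of the diet-by-strain comparison is given below with and without several of these libraries.

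Of 22376 genes, 18769 had enough counts to be tested. The diet effect differed between the strains for 1766 genes at an adjusted p below 0.05, which is 9.41% of the genes tested: 852 were higher (4.54%) and 914 lower (4.87%) in NZO/HlLtJ. At least 2-fold differences were seen for 674 of them, 419 higher and 255 lower. Leaving out replicates 1 and 3 of C57BL/6J on 10% fat, the libraries with the highest muscle signal in that group and called the 2 muscle-high libraries below, left 596 genes, 590 of them among the 1766. The summed muscle level of replicate 1 itself lay within the range of the NZO/HlLtJ libraries on 10% fat. Leaving both out also leaves 2 libraries in the C57BL/6J group on 10% fat, 1 of them replicate 2, which stood apart on the second principal component. Any part of muscle in the calls lost this way was not tested. Leaving out replicate 2 of the same group instead gave 2089 genes, 1609 of them among the 1766. Without 4 libraries, the 2 muscle-high ones, replicate 3 of C57BL/6J on 44% fat and replicate 1 of NZO/HlLtJ on 44% fat, 356 genes were called, 351 of them among the 1766. Scaling by library totals in place of the TMM factors (trimmed mean of M-values) gave 1517 genes, of which 63.5% were higher against 48.2% in the main test, and moved the median of all genes from -0.01 to 0.07. The 16 libraries fitted alone gave 2158 genes, of which 58.4% were higher, and limma on the deposited log2 values gave 1963, of which 60.5% were higher.

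The sample numbers in the labels fall into ranges, and those ranges were not balanced over the groups. NZO/HlLtJ libraries on 10% fat came 2 each from the ranges ORSAM77 and ORSAM81 and those on 44% fat 2 each from ORSAM77 and ORSAM88, so outside ORSAM77 the range and the diet cannot be told apart in that strain. With the range as a term, 1544 genes were called, 1479 of them among the 1766. Within ORSAM77 alone edgeR called 0 genes (2601 at an unadjusted p below 0.05), with 1 C57BL/6J library per diet, and outside it 201 genes. The term ended the call of 9 of the 89 called genes that were followed through the alternatives: Ucp1 (adjusted p 0.0547), Nnat (0.0615), Cd163 (0.102), Thrsp (0.0796), Ccl4 (0.0777), Pccb (0.0546), Col8a1 (0.0602), Mmp2 (0.066) and Plau (0.0728). For 38 of the 89, the differences within and outside ORSAM77 were over 1.5 times apart or opposite in sign. Adipoq was at -1.32 within ORSAM77 and -1.30 outside it, whereas Ucp1 was at 0.32 and 3.55, Otop1 at -0.10 and 2.86, Sfrp5 at -2.21 and -4.72 and Plk1 at 3.40 and 1.28. Fasn, which was not called, was at -2.26 and -0.25.

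Most of the called genes changed with diet in NZO/HlLtJ and were not called in C57BL/6J. Of the 1766, 631 rose in NZO/HlLtJ and were not called in C57BL/6J, and 563 fell in NZO/HlLtJ and were not called in C57BL/6J. Another 192 rose and 125 fell in C57BL/6J alone by the same rule. Opposite calls were rarer, with 26 genes rising in NZO/HlLtJ and falling in C57BL/6J and 51 doing the reverse. Only 2 of the 1766 fell in both strains and none rose in both, while 176 passed neither diet test. The diet-by-strain test selects against like changes in both strains, so these counts do not measure how many changes were shared. Over all 18769 genes tested, 176 fell and 78 rose in both strains. Opposite calls over all genes tested were 26 up and 51 down in NZO/HlLtJ. The diet change was the larger one in NZO/HlLtJ for 1274 genes (72.1%), and the gap between the strains was wider on 44% than on 10% fat for 1292 (73.2%). Both shares were counted among the 1766 called genes alone, without the share over all genes beside them.

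Each diet effect had its own size. In NZO/HlLtJ females, 3960 genes changed with diet (21.1% of those tested), 1942 up (10.3%) and 2018 down (10.8%). In C57BL/6J females, 1368 changed (7.29%), 727 up (3.87%) and 641 down (3.42%). The strains differed for 36.9% of genes on 10% fat and for 45.5% on 44% fat. The C57BL/6J count depended on the libraries: it was 12 without replicates 1 and 3 on 10% fat, 385 without replicate 1 alone and 2474 without replicate 2 alone, while the NZO/HlLtJ count stayed between 3020 and 3576 when any one of its 8 libraries was left out. For 516 of the 1766 genes, all 4 NZO/HlLtJ libraries on 44% fat lay above the other 12, a separation that 9.13% of all tested genes showed. For 407 they lay below the other 12, which 8.25% of all tested genes showed. The 1766 were called from these same libraries, so a larger share among them follows in part from that selection. It is no separate support for the calls.

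**Figure D1:**
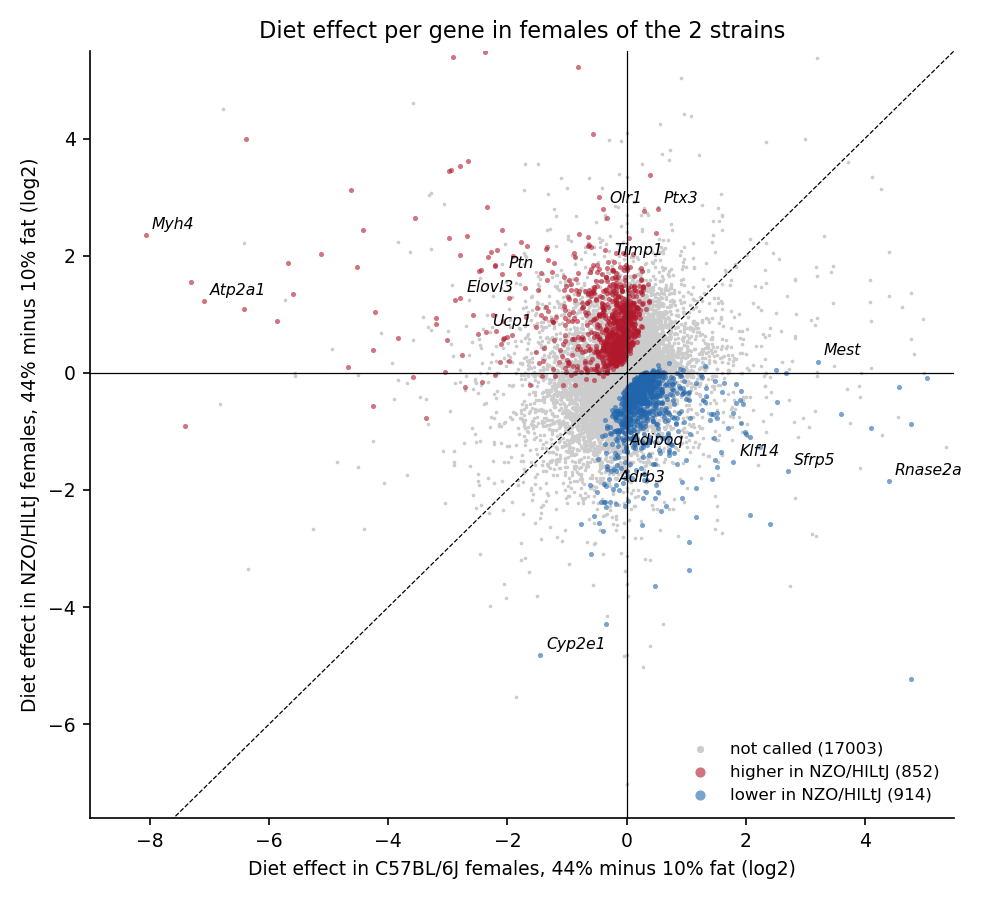
Diet effect of each tested gene in C57BL/6J females (horizontal axis, log2 of 44% over 10% fat) and NZO/HlLtJ females (vertical axis); red and blue points are genes whose diet effect was higher (852) or lower (914) in NZO/HlLtJ at an adjusted p below 0.05, the dashed line marks equal effects, and 5 genes lie outside the axes. Most called genes are spread along the vertical axis near 0 on the horizontal one, and a scatter of genes with large negative C57BL/6J values, Myh4 and Atp2a1 among them, lies to the left.

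Many adipocyte genes fell with 44% fat in NZO/HlLtJ, and few were called in C57BL/6J. Of 24 adipocyte identity genes, all tested, 10 were called lower and none higher. The share called was 41.7% and the median -0.47, against 9.41% and -0.01 over all genes tested. In NZO/HlLtJ alone 15 of the 24 fell and 1 rose, and in C57BL/6J 1 fell and 4 rose. Without the 2 C57BL/6J libraries high in muscle genes, 7 were called lower. The summed level of the 24 genes was 53000 to 55900 CPM in NZO/HlLtJ on 10% fat and 35300 to 43800 CPM on 44% fat, without overlap, whereas the C57BL/6J libraries held 56100 to 67700 and 57300 to 71200 CPM.

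Adipoq, which encodes the insulin-sensitising hormone adiponectin, lies on chromosome 16 (GRCm38, 23146536 to 23158028). Its level was 2350, 2330, 2370 and 2230 CPM in NZO/HlLtJ on 10% fat and 1070, 822, 801 and 963 CPM on 44% fat. In C57BL/6J it was 3030, 2480, 2870 and 3070 CPM on 10% fat and 3090, 2210, 2780 and 2970 CPM on 44% fat. The 4 NZO/HlLtJ libraries on 44% fat lay below all others, and the C57BL/6J diets overlapped. The difference of the diet effects was -1.29 log2 (SE 0.17, adjusted p 1.48e-05), a 2.45-fold difference. It was -1.42 without the 4 libraries that were left out together above (adjusted p 0.00043).

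Car3, carbonic anhydrase 3 and one of the most abundant adipocyte transcripts, followed the same course. It was 8810, 9210, 8200 and 9410 CPM in NZO/HlLtJ on 10% fat and 4020, 3220, 3180 and 3530 CPM on 44% fat. In C57BL/6J it ranged from 12200 to 15900 CPM on 10% and from 13100 to 17800 CPM on 44% fat. The NZO/HlLtJ diets were separate and the C57BL/6J diets overlapped, and the difference was -1.36 log2 (SE 0.23, adjusted p 0.0003).

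Of 21 genes of lipolysis and the lipid droplet, 4 were called lower and none higher (19%, against 9.41% of all genes tested, median -0.30). All 4, Adrb3, Lipe, Plin1 and Plin4, stayed called without the 2 muscle-high libraries. Adrb3, the beta-3 adrenergic receptor through which noradrenaline starts lipolysis, was 164, 273, 194 and 183 CPM in NZO/HlLtJ on 10% fat and 69.1, 59.4, 31.2 and 46.4 CPM on 44% fat. The C57BL/6J libraries held 440 to 765 CPM on 10% fat and 436 to 551 CPM on 44% fat. The NZO/HlLtJ diets were separate and the C57BL/6J diets overlapped (difference -1.75, SE 0.38, adjusted p 0.00297).

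Plin4, a coat protein of nascent lipid droplets on chromosome 17 (56100591 to 56109803), moved in opposite directions. It fell in NZO/HlLtJ from 3840, 3480, 3790 and 3720 CPM to 1660, 1750, 2290 and 2670 CPM. The C57BL/6J level rose from 2210, 3370, 2460 and 2050 CPM to 3350, 4350, 3230 and 4860 CPM. One C57BL/6J library on 10% fat, replicate 2 at 3370 CPM, lay within the range of the 44% group, and the NZO/HlLtJ groups did not overlap. The difference was -1.47 log2 (SE 0.22, adjusted p 9.05e-05). Plin1, which coats the droplet of the mature adipocyte, differed by -0.72 (adjusted p 0.000677), and Lipe, hormone-sensitive lipase, by -0.68 (adjusted p 0.00271).

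Of 23 genes of insulin signalling and glucose uptake, 7 were called lower and 1 higher (34.8%, against 9.41% of all genes tested, median -0.34). None of the 23 was called for diet in C57BL/6J. Without the 2 muscle-high libraries the list had 1 lower and 1 higher call, the latter being Trib3 (adjusted p 0.041). Slc2a4, the insulin-regulated glucose transporter GLUT4, was 162 to 199 CPM in NZO/HlLtJ on 10% fat and 84.2 to 94.8 CPM on 44% fat, against 177 to 246 and 163 to 283 CPM in C57BL/6J. Its difference of -1.0 (SE 0.28, adjusted p 0.0199) was lost without C57BL/6J replicate 1 on either diet (adjusted p 0.0531 and 0.062) and without both muscle-high libraries (0.157). Irs1, the docking protein downstream of the insulin receptor, differed by -0.91 (adjusted p 0.0146, and 0.147 without those 2 libraries). Gys1, glycogen synthase, differed by -0.64 (adjusted p 0.00886, and 0.0603 without the 2 libraries). The 1 gene called higher was Trib3, a pseudokinase reported to restrain Akt, at 0.87 (adjusted p 0.0146). Retn, the adipocyte hormone resistin, differed by -1.04 (adjusted p 0.00757).

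Enzymes that break down branched-chain amino acids fell in NZO/HlLtJ. Of 19 tested, 18 fell with 44% fat in NZO/HlLtJ and 4 in C57BL/6J. The difference was called lower for 5 and higher for none (26.3%, against 9.41% of all genes tested, median -0.38). The summed level was 2310, 2440, 2370 and 2280 CPM in NZO/HlLtJ on 10% fat and 1600, 1410, 1460 and 1620 CPM on 44% fat. In C57BL/6J it was 3080 to 4110 CPM on 10% fat and 2770 to 3560 CPM on 44% fat, with overlap. Mccc1 and Mccc2, the 2 subunits of methylcrotonyl-CoA carboxylase in leucine breakdown, differed by -0.83 (SE 0.18, adjusted p 0.00321) and -0.80 (SE 0.14, adjusted p 0.000464). The other called members, named after their values were seen, were Ivd at -0.66, Auh at -0.53, both also of the leucine pathway, and Pccb at -0.49, a subunit of propionyl-CoA carboxylase. Those 3 were no longer called without the 2 muscle-high libraries (adjusted p 0.0697, 0.0697 and 0.195), which left Mccc1 and Mccc2. Pccb was also lost in 10 of the 16 fits that left out 1 library (adjusted p up to 0.102).

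Nuclear-encoded genes of oxidative phosphorylation, which makes ATP in mitochondria, gave 0 calls of 29 by edgeR and 0 by DESeq2, with 5 lower and 0 higher at an unadjusted p below 0.05. Over all genes tested, edgeR put 4476 of 18769 at an unadjusted p below 0.05. All 29 values were below 0 (median -0.25), and a fall was called for 12 of the 29 in NZO/HlLtJ and for 0 in C57BL/6J. Fatty acid oxidation genes gave 0 of 22 by edgeR, by DESeq2 and at an unadjusted p below 0.05, and their median diet effects were -0.26 in NZO/HlLtJ and -0.24 in C57BL/6J.

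Of 20 genes of lipogenesis, 1 was called higher and 1 lower (median -0.62), a share of 10% against 9.41% of all genes tested. Lipogenic enzymes build fatty acids from sugar. The gene called lower was Thrsp, a regulator of lipid synthesis, at -1.88 (adjusted p 0.0488). Its levels were 610, 817, 163 and 772 CPM in NZO/HlLtJ on 10% fat and 196, 258, 116 and 115 CPM on 44% fat. Replicate 3 on 10% fat, at 163 CPM, lay within the range of the 44% group, and the call was lost in 12 of the 16 fits without 1 library (adjusted p up to 0.119). Elovl5, a fatty acid elongase, was called higher at 0.66 (adjusted p 0.0297, lost in 9 of 16 such fits, up to 0.0866). Fasn, fatty acid synthase, showed the same library: 9960, 12000, 3700 and 12300 CPM in NZO/HlLtJ on 10% fat and 3360, 5710, 4360 and 6280 CPM on 44% fat, with a difference of -0.94 (SE 0.51, adjusted p 0.268).

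**Figure D2:**
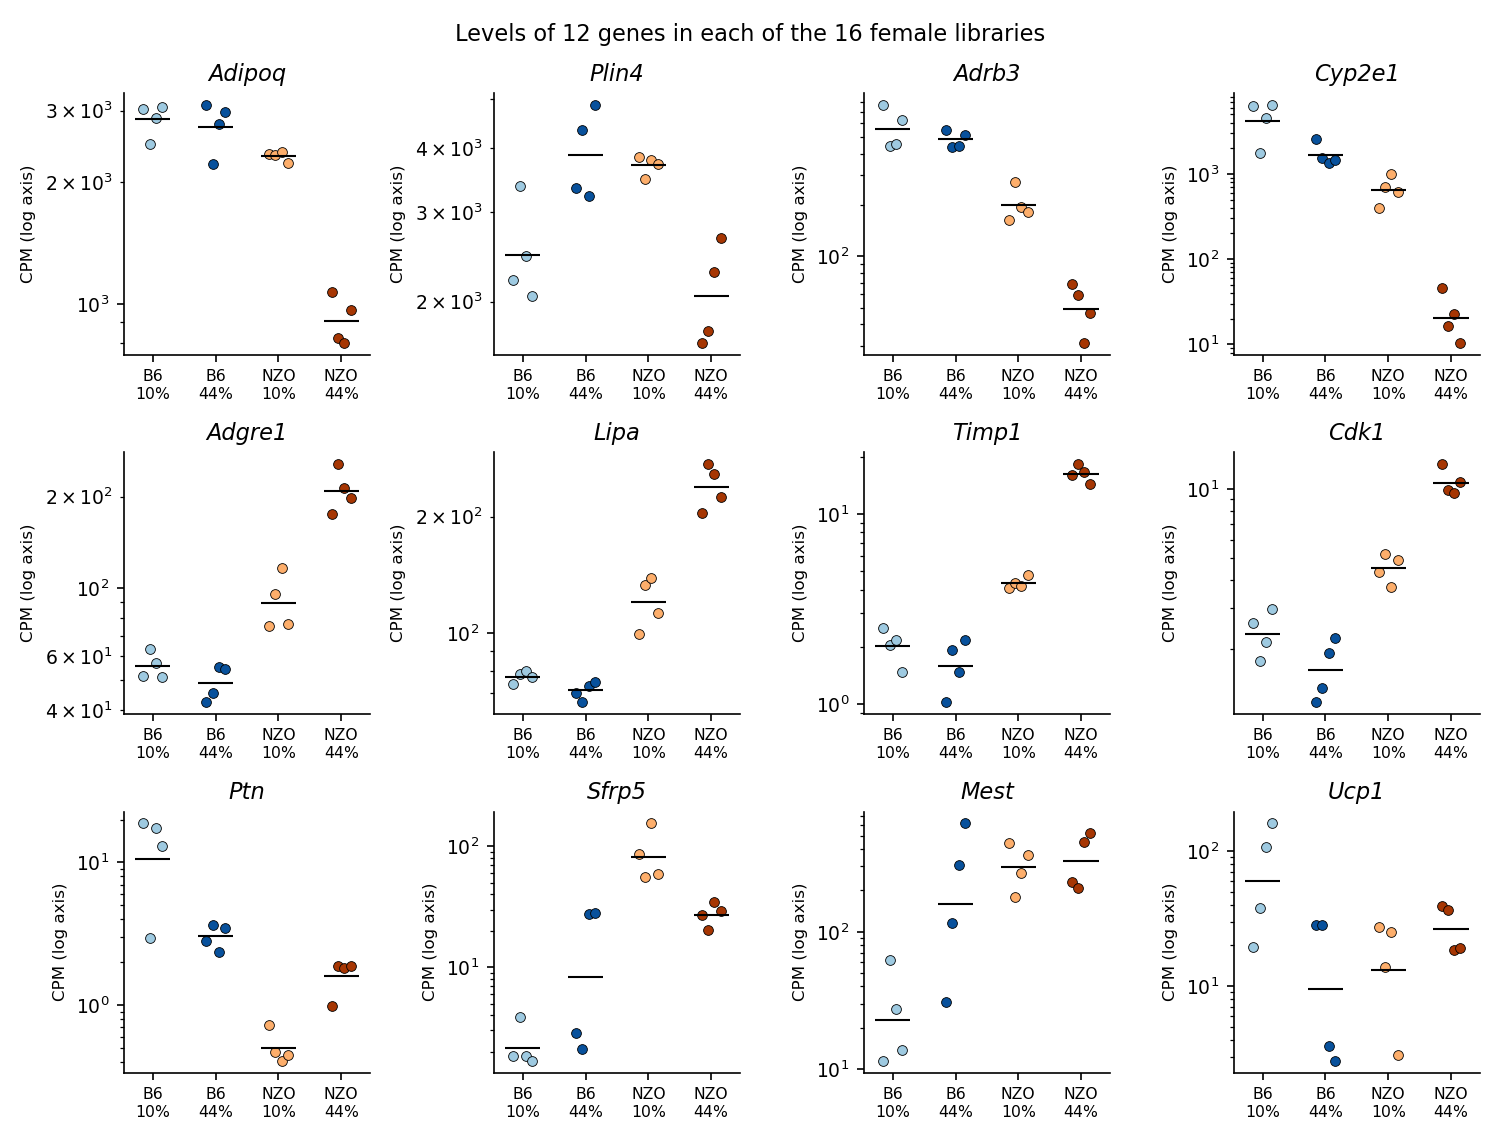
Level of 12 genes (CPM, log axis) in each of the 16 female libraries by strain (B6, C57BL/6J; NZO, NZO/HlLtJ) and diet; each point is 1 library and the bar is the geometric mean of 4. For Adipoq, Adrb3 and Cyp2e1 the 4 NZO/HlLtJ libraries on 44% fat lie below the other 12, and for Adgre1, Lipa, Timp1 and Cdk1 they lie above them. The C57BL/6J libraries are widely spread on 44% fat for Sfrp5 and on either diet for Mest and Ucp1.

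Of 20 macrophage genes, 10 were called higher and 1 lower (55%, against 9.41% of all genes tested, median 0.67). In NZO/HlLtJ 14 rose, and none was called for diet in C57BL/6J. With those 2 muscle-high libraries left out, 5 stayed called higher and none lower. The summed level was 2060, 2260, 2710 and 2130 CPM in NZO/HlLtJ on 10% fat and 3810, 4450, 3980 and 3660 CPM on 44% fat. The C57BL/6J libraries held 1370 to 1480 CPM on 10% fat and 1320 to 1660 CPM on 44% fat, so all NZO/HlLtJ libraries lay above all C57BL/6J libraries on either diet.

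Adgre1, which encodes the macrophage marker F4/80, was 75.2, 96.2, 117 and 76.7 CPM in NZO/HlLtJ on 10% fat and 175, 255, 214 and 198 CPM on 44% fat. In C57BL/6J it was 51.7, 63.3, 57.1 and 51.2 CPM on 10% fat and 42.5, 45.3, 55.5 and 54.4 CPM on 44% fat. The groups of NZO/HlLtJ were separate and those of C57BL/6J overlapped, with a difference of 1.38 log2 (SE 0.29, adjusted p 0.00199). Cd14, the co-receptor for bacterial lipopolysaccharide, differed by 1.45 (SE 0.23, adjusted p 0.000134). Cd163, a scavenger receptor of resident macrophages, went the other way, from 71.1 to 155 CPM down to 39.2 to 61.6 CPM in NZO/HlLtJ. It was the member called lower, at -0.97 (adjusted p 0.045), a call lost in 11 of the 16 fits without 1 library (up to 0.157). Fcgr4, an activating Fc receptor of myeloid cells, had one of the 12 largest differences, 2.98 (SE 0.54, adjusted p 0.000585), from 1.00 to 1.74 CPM to 5.01 to 16.8 CPM in NZO/HlLtJ. Olr1, the oxidised lipoprotein receptor LOX-1, rose there from 1.49, 1.66, 1.57 and 1.99 CPM to 7.61, 8.23, 15.6 and 15.1 CPM (difference 3.20, SE 0.74, adjusted p 0.00486), while the C57BL/6J libraries stayed between 0.224 and 0.645 CPM.

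Cd9, a tetraspanin of lipid-laden macrophages, differed by 1.23 (SE 0.24, adjusted p 0.000878). Genes that mark these cells gave 6 higher and 1 lower call out of 20 (35%, against 9.41% of all genes tested, median 0.51). With diet, 12 rose in NZO/HlLtJ and 1 in C57BL/6J. Without the 2 muscle-high libraries 3 stayed called higher. The summed level was 17200 to 19600 CPM in NZO/HlLtJ on 10% fat and 18500 to 21000 CPM on 44% fat, with overlap. In C57BL/6J it was 11700 to 13800 CPM on 10% and 13300 to 17300 CPM on 44% fat, also with overlap. The group medians went from 18500 to 19200 CPM in NZO/HlLtJ and from 12200 to 15200 CPM in C57BL/6J. The member called lower was Acp5, tartrate-resistant acid phosphatase, at -0.59 (adjusted p 0.0266, lost in 5 of 16 fits without 1 library, up to 0.0678). Itgax and Trem2, well-known markers of these cells, rose in NZO/HlLtJ by 1.2 and 1.23 log2 (adjusted p 0.00595 and 0.0165). Their diet-by-strain differences were 0.28 (SE 0.50, adjusted p 0.793) and 0.50 (SE 0.56, adjusted p 0.641). Their C57BL/6J levels were low, 2.18 to 6.45 CPM for Itgax against 40.0 to 169 CPM in NZO/HlLtJ.

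Of 25 lysosomal genes tested, 9 were called higher and none lower (36%, against 9.41% of all genes tested, median 0.47). With diet, 15 rose in NZO/HlLtJ and 1 fell in C57BL/6J. With those 2 muscle-high libraries left out, 6 stayed called. The summed level was 9040 to 9730 CPM in NZO/HlLtJ on 10% fat and 12200 to 12700 CPM on 44% fat, against 7680 to 8900 CPM over the 8 C57BL/6J libraries. Lipa, lysosomal acid lipase, which frees fatty acids and cholesterol from engulfed lipid, was 99.8, 133, 139 and 113 CPM on 10% and 205, 273, 258 and 225 CPM on 44% fat in NZO/HlLtJ. The C57BL/6J libraries held 73.8 to 79.8 and 66.5 to 75.0 CPM, and the difference was 1.10 (SE 0.20, adjusted p 0.000464). Asah1, acid ceramidase, rose in NZO/HlLtJ from 73.2 to 79.7 CPM to 92.1 to 101 CPM and fell in C57BL/6J from 103 to 118 CPM to 86.2 to 97.0 CPM. Neither strain's groups overlapped, and the difference was 0.62 (SE 0.10, adjusted p 0.000225).

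Of 24 inflammatory mediators, 10 rose and 1 fell in NZO/HlLtJ, and none was called in C57BL/6J. DESeq2 called the difference higher for 4 and lower for none. By edgeR it was called higher for 2 and lower for none (median 1.19), 8.33% of the list against 9.41% of all genes tested. The 2 were Ccl4, a myeloid chemokine, at 2.76 (adjusted p 0.0376) and Tgfb1, a growth factor of tissue repair, at 0.53 (adjusted p 0.0253). Ccl4 had 1 to 9 counts per library in C57BL/6J and its call was lost in 9 of 16 fits without 1 library (adjusted p up to 0.167). Tgfb1 was lost in 4 of them (up to 0.0728) and without the 2 muscle-high libraries (0.0749). Ccl2, the monocyte chemokine, rose in NZO/HlLtJ from 6.73, 4.76, 3.63 and 6.88 CPM to 31.4, 35.5, 27.9 and 24.5 CPM (adjusted p 4.31e-05). In C57BL/6J it was 0.633 to 1.18 CPM on 10% and 1.57 to 2.12 CPM on 44% fat, and the difference, 1.66 (SE 0.63), did not pass by edgeR (adjusted p 0.0881) and passed by DESeq2 (adjusted p 0.0377). Tnf at 1.2 (adjusted p 0.218) and Saa3 at 1.30 (adjusted p 0.366) did not pass by edgeR.

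Complement genes gave 4 higher and 1 lower call out of 17 (29.4%, against 9.41% of all genes tested, median 0.21). C3ar1, the receptor for the C3a fragment, was 41.2 to 58.8 CPM in NZO/HlLtJ on 10% fat and 102 to 171 CPM on 44% fat, with C57BL/6J at 18.5 to 24.4 CPM on both diets (difference 1.55, SE 0.32, adjusted p 0.00181). The other higher members were the 3 chains of C1q, which macrophages make, C1qa and C1qc being named after their values were seen: C1qa at 0.63, C1qb at 0.82 and C1qc at 0.69. These calls were weak: C1qa was lost in 11, C1qb in 2 (without replicate 1 of C57BL/6J or of NZO/HlLtJ on 44% fat, adjusted p 0.0517 and 0.0502) and C1qc in 9 of the 16 fits without 1 library (adjusted p up to 0.121 for C1qa and 0.0765 for C1qc). C6, a component of the membrane attack complex, was lower at -1.81 (adjusted p 0.00503): it fell in NZO/HlLtJ from 80.1 to 119 CPM to 49.9 to 60.6 CPM and rose in C57BL/6J from 44.2 to 60.7 CPM to 68.5 to 152 CPM.

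All 20 cell cycle genes rose in NZO/HlLtJ, and none was called for diet in C57BL/6J. The difference was called higher for 8 and lower for none (40%, against 9.41% of all genes tested, median 1.04). Without the 2 muscle-high libraries it was called for 3. The summed level of the 20 was 199, 186, 175 and 236 CPM in NZO/HlLtJ on 10% fat and 464, 533, 372 and 416 CPM on 44% fat. C57BL/6J libraries held 93.6 to 113 CPM on 10% fat and 105 to 136 CPM on 44% fat. Cdk1, the kinase that drives entry into mitosis, was 4.33, 5.20, 3.72 and 4.87 CPM on 10% and 12.8, 9.84, 9.58 and 10.7 CPM on 44% fat in NZO/HlLtJ, and 1.17 to 2.98 CPM over the 8 C57BL/6J libraries (difference 1.76, SE 0.38, adjusted p 0.0026). Plk1, a mitotic kinase, went from 1.72 to 2.88 CPM to 5.16 to 8.59 CPM in NZO/HlLtJ, with 0.47 to 1.33 CPM in C57BL/6J (difference 1.99, SE 0.51, adjusted p 0.0107). For both genes the NZO/HlLtJ libraries on 44% fat were above the other 12.

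The promoters of Cdk1 and Plk1 are shown because the genes of this list all rose in NZO/HlLtJ, as the 250 bases before the RefSeq start (GRCm38.p6). The capitals mark the CCAAT box, CCAAT or its reverse complement ATTGG, and the cell cycle homology region as TTTGAA or TTCAAA, searched on both strands. Cdk1 lies on the minus strand at chr10:69352913-69353162 and Plk1 on the plus strand at chr7:122159185-122159434.

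Cdk1: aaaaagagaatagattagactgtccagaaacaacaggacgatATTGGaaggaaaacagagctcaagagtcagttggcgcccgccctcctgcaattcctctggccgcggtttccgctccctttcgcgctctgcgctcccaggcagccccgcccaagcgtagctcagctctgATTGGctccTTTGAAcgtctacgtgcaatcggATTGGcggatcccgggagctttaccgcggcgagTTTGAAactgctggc
Plk1: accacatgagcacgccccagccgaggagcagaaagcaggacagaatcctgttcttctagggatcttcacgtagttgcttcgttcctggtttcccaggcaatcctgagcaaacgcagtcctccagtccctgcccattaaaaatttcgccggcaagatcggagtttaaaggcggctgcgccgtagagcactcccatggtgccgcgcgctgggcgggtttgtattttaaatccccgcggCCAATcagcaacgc

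Cdk1 held 3 CCAAT matches and 2 TTTGAA matches, and Plk1 held 1 and 0. Of the 18 cell cycle genes with a sequence in the table, 16 (88.9%) held a CCAAT match and 6 (33.3%) a TTTGAA match, against 35.6% and 10.9% of 12486 tested genes with a sequence. Such a match is a description of these letters and not a binding site. For lysosomal genes, the E-box with a leading T, TCACGTG on either strand, was present in 5 of 17 promoters (29.4%) and in 4.58% of the 12486, and in 0 of the 6 called members that had a sequence.

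Of 28 genes of the extracellular matrix, 5 were called higher and none lower (17.9%, against 9.41% of all genes tested), with a median of -0.04. Postn, periostin, rose in NZO/HlLtJ from 432, 410, 481 and 484 CPM to 598, 763, 755 and 735 CPM and in C57BL/6J was 294 to 537 CPM on 10% and 291 to 348 CPM on 44% fat (difference 1.15, SE 0.28, adjusted p 0.00734). Of the other 4, all but Lox were named after their values were seen. They were Col12a1 at 1.44 and Col8a1 at 0.81, collagens, Lum at 0.98, a fibril proteoglycan, and Lox at 0.94, the collagen cross-linking enzyme. Without the 2 muscle-high libraries Lox alone stayed called (0.0455), Postn being at 0.0929, and it was lost without C57BL/6J replicate 1 on 44% fat (0.0524). Col12a1 and Col8a1 were each lost in 11 of the 16 fits without 1 library (up to 0.0848 and 0.122). Col1a1 at 0.50 (adjusted p 0.386) and Col6a3 at -0.19 (adjusted p 0.813) did not pass.

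Among 21 genes of matrix remodelling, 5 were called higher and 2 lower (33.3%, against 9.41% of all genes tested, median 0.37). Timp1, an inhibitor of matrix metalloproteinases on the X chromosome, was 4.08, 4.35, 4.17 and 4.78 CPM in NZO/HlLtJ on 10% fat and 16.1, 18.2, 16.5 and 14.3 CPM on 44% fat. C57BL/6J libraries held 1.03 to 2.53 CPM, and the difference was 2.22 (SE 0.53, adjusted p 0.00623, and 0.0518 without the 2 muscle-high libraries). Timp4, the family member made by adipocytes, went the other way: 216 to 424 CPM fell to 98.4 to 156 CPM in NZO/HlLtJ, and C57BL/6J went from 40.2, 118, 51.6 and 54.3 CPM to 88.3, 74.3, 114 and 183 CPM. Timp4 differed by -2.17 (SE 0.35, adjusted p 0.000143, and 0.0057 without the 2 libraries). Mmp3, stromelysin, was higher at 2.19 (adjusted p 0.00125), as were 3 genes named after their values were seen, Mmp14 at 1.12, which activates pro-MMP2, Mmp2 at 0.76 and Plau at 0.71, the urokinase gene. With those 2 muscle-high libraries left out, Mmp3 (adjusted p 0.0146) and Timp4 stayed called. Mmp2 and Plau were lost in 12 and 13 of the 16 fits without 1 library (up to 0.109 and 0.112). Mmp9 was the other lower gene, at -2.02 (adjusted p 0.0192). Its call rested on C57BL/6J replicate 3 on 44% fat, at 114 CPM against 30.0 to 39.5 CPM in the other 3, the library with the highest B cell signal, and the adjusted p was 0.1 without it.

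Of 12 mesothelial genes, which mark the surface layer of the fat pad, 10 fell in NZO/HlLtJ and none was called for diet in C57BL/6J. The difference was called lower for 3 and higher for none (25%, against 9.41% of all genes tested, median -0.97). The summed level was 222 to 286 CPM in NZO/HlLtJ on 10% and 80 to 170 CPM on 44% fat, against 343 to 559 CPM in C57BL/6J. Muc16, a surface mucin, went from 20.2 to 30.4 CPM to 2.60 to 7.51 CPM in NZO/HlLtJ (difference -1.92, SE 0.44, adjusted p 0.00496). Lrrn4 differed by -1.44 (adjusted p 0.00964) and Krt8, a keratin named after its value was seen, by -1.70 (adjusted p 0.0332, lost in 7 of 16 fits without 1 library, up to 0.0884). Whether the share of this layer has a part in the other results was not tested.

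**Figure D3:**
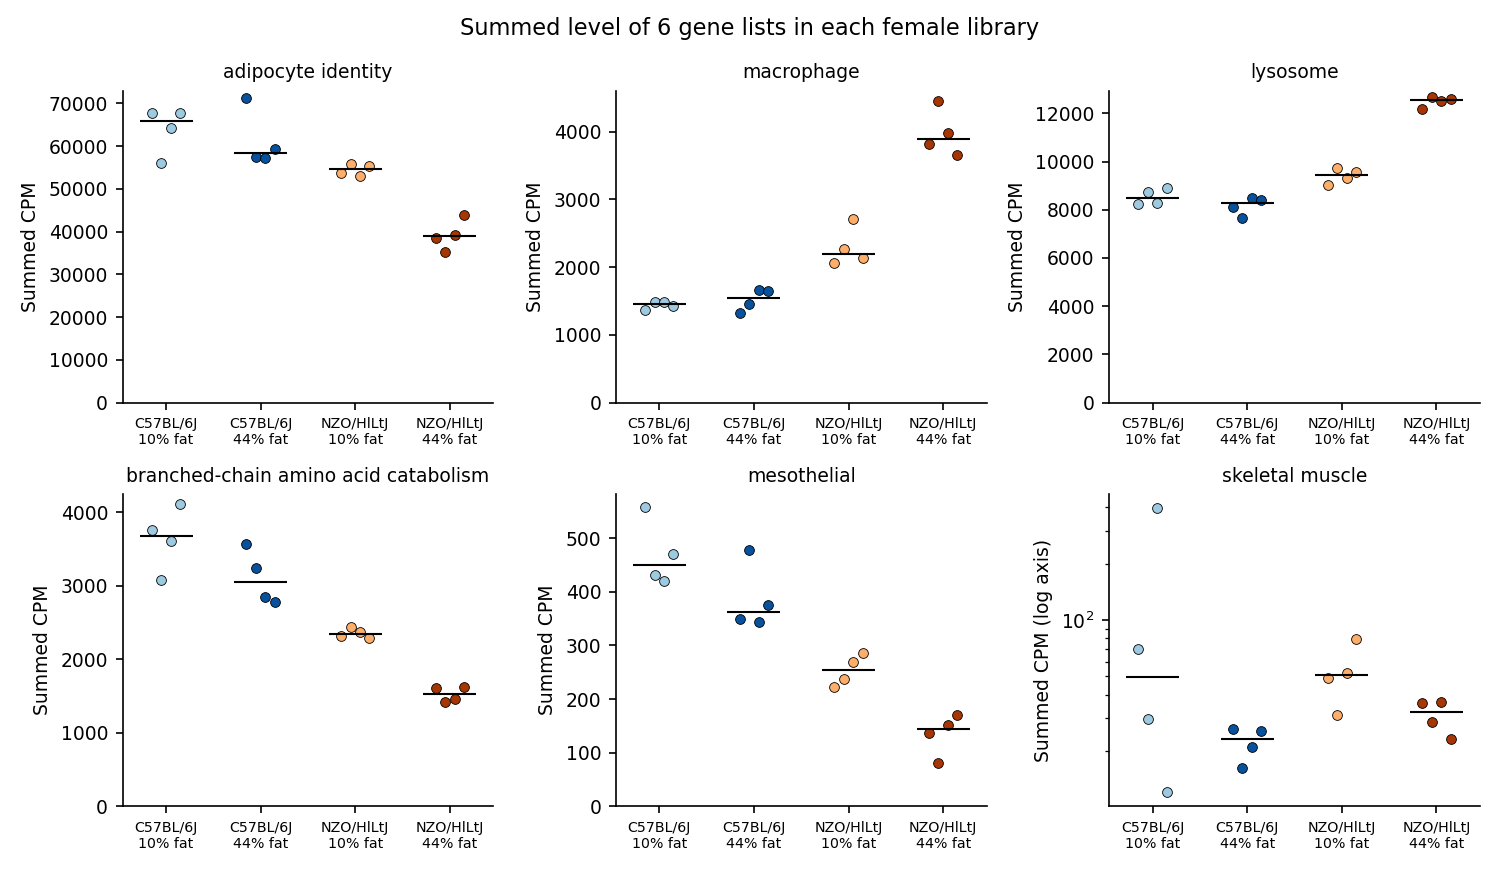
Summed CPM of 6 gene lists in each of the 16 female libraries; each point is 1 library, the bar is the median of 4, and the skeletal muscle panel has a log axis. NZO/HlLtJ libraries on 44% fat are lowest for the adipocyte, branched-chain amino acid and mesothelial lists and highest for the macrophage and lysosome lists. For skeletal muscle, 1 C57BL/6J library on 10% fat lies apart at 395 CPM. Another, at 70 CPM, lies below the highest NZO/HlLtJ library on 10% fat (79.1 CPM).

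Of 18 genes of the unfolded protein response, 3 were called higher (Atf3, Ddit3 and Trib3) and 2 lower (Asns and Edem1). The share called was 27.8%, against 9.41% of all genes tested. Atf3, a stress-induced transcription factor, was 14.4 to 22.3 CPM in NZO/HlLtJ on 10% and 42.9 to 53.1 CPM on 44% fat, with 3.67 to 6.00 CPM in C57BL/6J (difference 1.63, SE 0.46, adjusted p 0.02, and 0.0518 without the 2 muscle-high libraries). Ddit3, which encodes CHOP, differed by 0.71, Asns, asparagine synthetase, by -0.75 and Edem1, of protein disposal, by -0.41. Ddit3 and Edem1 were named after their values were seen. These 3 were lost without the 2 libraries (adjusted p 0.123, 0.0703 and 0.273) and in 3, 7 and 11 of the fits without 1 library. Antioxidant genes gave 3 lower calls out of 21 (14.3%, against 9.41% of all genes tested). They were the glutathione transferases Gstm1 at -1.06 (SE 0.18, adjusted p 0.000251) and Gsta4, named after its value was seen, at -1.09 (adjusted p 0.0147, and 0.0737 without the 2 libraries), and the secreted superoxide dismutase Sod3 at -0.86 (adjusted p 0.00292). Gstm1 went from 86.7 to 117 CPM to 40.9 to 52.8 CPM in NZO/HlLtJ and lay between 238 and 307 CPM in the 8 C57BL/6J libraries.

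Interferon-stimulated genes are induced by viral or tissue signals through interferon receptors. A rise with 44% fat was called for 17 of 24 in NZO/HlLtJ and for 0 in C57BL/6J, with median diet effects of 0.70 and 0.37. The diet-by-strain difference was called for 0 of the 24 by edgeR and by DESeq2, with 4 higher and 0 lower at an unadjusted p below 0.05 (median 0.26). All genes tested gave 4476 of 18769 at that unadjusted threshold by edgeR. Their summed level in C57BL/6J was 562 to 620 CPM on 10% fat and 649 to 785 CPM on 44% fat, without overlap. In NZO/HlLtJ it was 593 to 629 CPM on 10% fat and 1470, 900, 610 and 745 CPM on 44% fat, with overlap. Replicate 1 of NZO/HlLtJ on 44% fat, the highest of these, also held the highest T and NK cell sum.

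Several other lists gave 1 or 2 calls by edgeR. In the 5 described first, the share called was 6.25% to 11.1%, against 9.41% of all genes tested, so these counts set none of them apart. Of 15 neutrophil and mast cell genes 1 was called, Csf3r, the receptor for granulocyte colony-stimulating factor, at 1.06 (adjusted p 0.0254). Of 16 genes of antigen presentation, 10 rose in NZO/HlLtJ and the median difference was 0.87. By edgeR 10 were higher and 1 lower at an unadjusted p below 0.05, where all genes tested gave 4476 of 18769. After adjustment 1 was called, the dendritic lectin Cd209a, lower at -1.16 (adjusted p 0.0259). DESeq2 called 5 of the 16 higher and 1 lower. Of 15 hypoxia genes 1 was called, Bnip3, a mitophagy receptor, at -0.77 (adjusted p 0.0264). Progenitor and fibroblast genes gave Bmper, a modulator of BMP signals, at 0.95 (adjusted p 0.0339) and Zfp423, a preadipocyte transcription factor, at -0.66 (adjusted p 0.0287) among 18, where DESeq2 called 3 higher and 2 lower. Of 13 smooth muscle and pericyte genes 1 was called, Abcc9, a potassium channel subunit, at 0.58 (adjusted p 0.0343). T and NK cell genes gave 0 of 20 by edgeR and DESeq2, with 1 at an unadjusted p below 0.05.

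**Figure D4:**
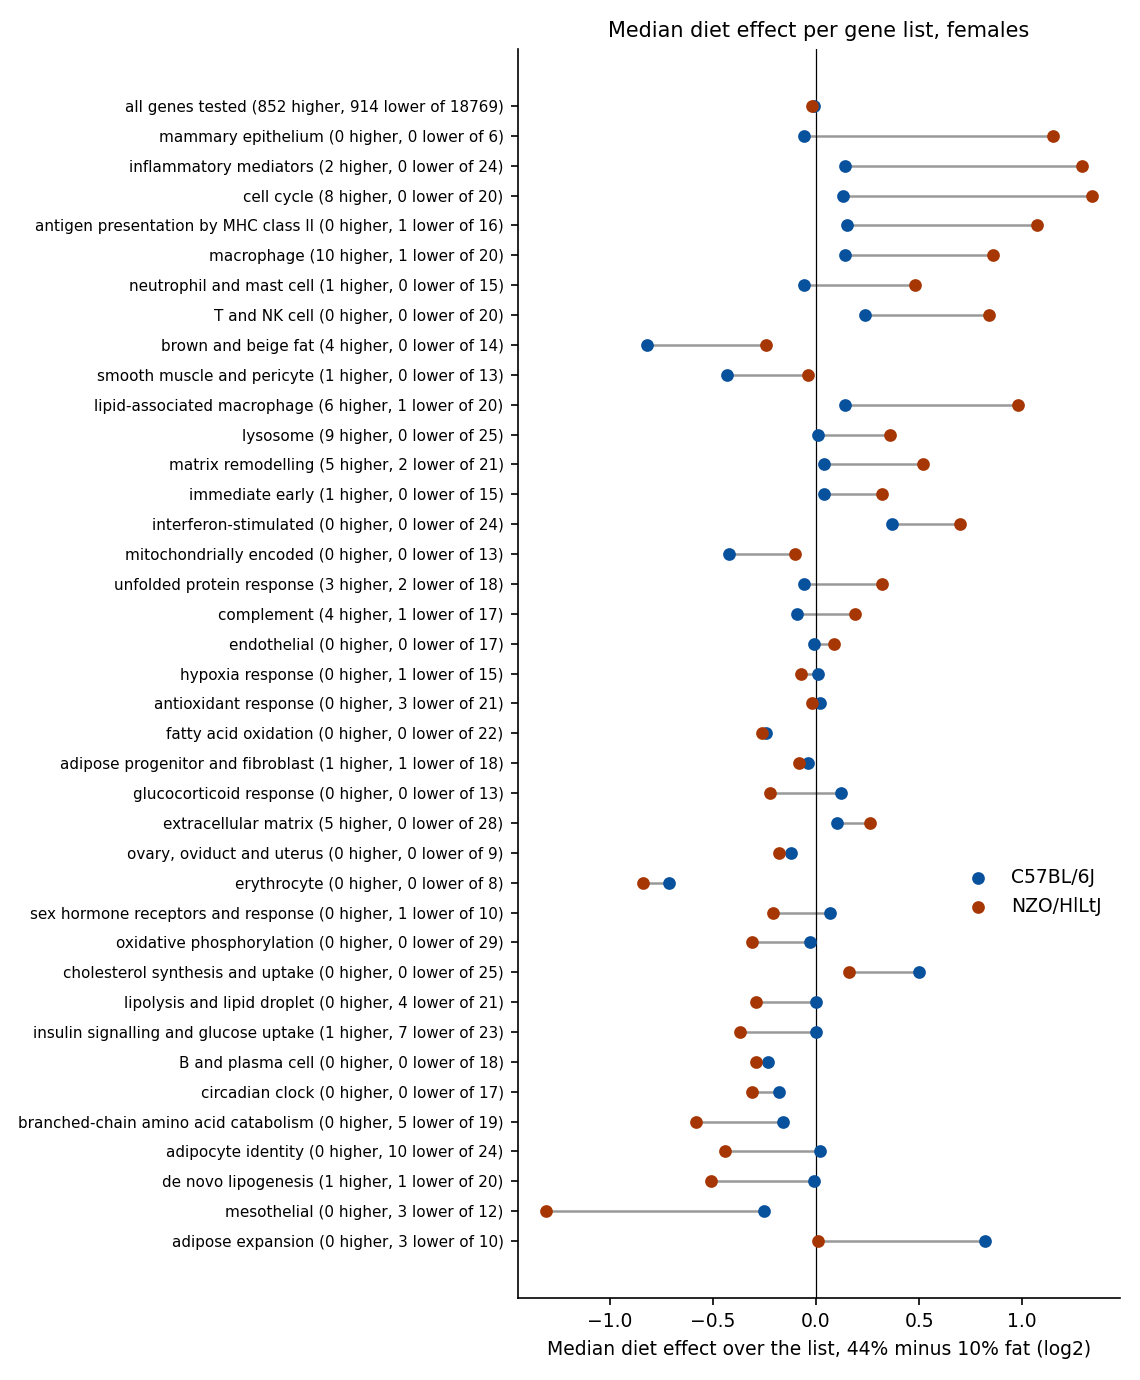
Median diet effect (log2, 44% minus 10% fat) over the members of 38 gene lists and over all genes tested, in C57BL/6J (blue) and NZO/HlLtJ (brown) females, with the number of members called higher or lower in brackets and the lists ordered by their median interaction; the skeletal muscle list is left out (medians -4.46 and 0.49). The cell cycle, inflammatory and macrophage medians lie to the right in NZO/HlLtJ and near 0 in C57BL/6J, and the mesothelial and adipocyte medians lie to the left.

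Some of the most extreme genes were set by the C57BL/6J groups. Of 12 skeletal muscle genes, 9 were called higher and none lower (75%, against 9.41% of all genes tested, median 4.70). With diet, 10 of these genes fell in C57BL/6J and none was called in NZO/HlLtJ. Without the 2 muscle-high libraries their median was 0.91. Myh4, a fast muscle myosin with the largest difference of the genes named by size (10.42, SE 2.6, adjusted p 0.00876), was 21.6, 0.275, 148 and 0.0947 CPM in C57BL/6J on 10% fat and at most 2.52 CPM in the other 12 libraries. Atp2a1, the calcium pump of fast muscle, was 13.7, 0.633, 78.4 and 0.379 CPM there (difference 8.31, adjusted p 0.00471). Without those libraries Myh4 differed by 2.66 (adjusted p 0.677) and Atp2a1 by 2.84 (adjusted p 0.402). Myh4 was also lost without NZO/HlLtJ replicate 2 on 44% fat (adjusted p 0.408). Eef1a2, an elongation factor of muscle and neurons, had its highest value, 6.64 CPM, in the same library as Myh4 (difference 3.22, adjusted p 0.00651, and 0.101 without the 2 libraries).

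Of 14 genes of brown and beige fat, 4 were called higher and none lower (28.6%, against 9.41% of all genes tested, median 0.58). Without the 2 muscle-high libraries 3 were called. Ucp1, the mitochondrial uncoupler of brown adipocytes, was 19.3, 38.1, 107 and 160 CPM in C57BL/6J on 10% fat and 28.3, 28.5, 3.57 and 2.79 CPM on 44% fat. In NZO/HlLtJ it was 27.3, 13.9, 25.1 and 3.10 CPM on 10% fat and 39.0, 36.4, 18.4 and 19.2 CPM on 44% fat. Replicates 1 and 2 of C57BL/6J overlapped between the diets, and the difference of 3.06 (SE 0.95, adjusted p 0.0339) was lost in 8 of the 16 fits without 1 library (up to 0.106), without the 2 muscle-high libraries (0.0514) and with the sample-number range as a term (0.0547). Elovl3, an elongase induced in thermogenic fat, fell in C57BL/6J from 2.47, 1.62, 9.03 and 10.9 CPM to 1.46, 1.67, 0.204 and 0.103 CPM (difference 4.07, SE 0.93, adjusted p 0.00454, and 0.0139 without the 2 muscle-high libraries).

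Tmem26, a surface protein used as a beige marker, rose in NZO/HlLtJ from 3.60 to 5.44 CPM to 9.06 to 18.3 CPM and went in C57BL/6J from 1.79 to 2.98 CPM to 1.24 to 1.45 CPM, with no overlap in either strain (difference 2.46, SE 0.42, adjusted p 0.000263). Otop1, a proton channel named after its value was seen, was the fourth, at 2.27 (adjusted p 0.0298, lost in 6 of 16 fits without 1 library, up to 0.104). Cidea, a lipid droplet protein of brown fat, did not pass at 0.92 (adjusted p 0.531).

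Of 10 genes linked to fat pad expansion, 3 were called lower and none higher (30%, against 9.41% of all genes tested, median -1.13). With diet, 4 rose in C57BL/6J against 2 in NZO/HlLtJ. Mest, an imprinted gene that tracks fat expansion, was 11.5, 62.1, 27.5 and 13.9 CPM in C57BL/6J on 10% fat and 30.6, 115, 304 and 615 CPM on 44% fat. In NZO/HlLtJ it was 178 to 439 CPM on 10% and 209 to 527 CPM on 44% fat, with overlap in both strains. Its difference of -3.02 (SE 0.81, adjusted p 0.0148) was -2.19 without C57BL/6J replicate 4 on 44% fat (adjusted p 0.0678) and was lost without the 2 muscle-high libraries (0.121).

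Sfrp5, a secreted Wnt inhibitor, was 1.83, 3.86, 1.83 and 1.68 CPM in C57BL/6J on 10% fat and 2.86, 2.12, 27.4 and 28.2 CPM on 44% fat. In NZO/HlLtJ it fell from 85.9, 55.4, 155 and 58.6 CPM to 27.0, 20.5, 34.4 and 29.1 CPM. The rise in C57BL/6J came from replicates 3 and 4, and the NZO/HlLtJ groups did not overlap (difference -4.39, SE 0.83, adjusted p 0.000823). With the same 4 libraries left out together as above, the adjusted p was 0.0546. Nnat, an imprinted proteolipid gene, was the third, at -2.02 (adjusted p 0.0485), and was lost in 13 of the 16 fits without 1 library (up to 0.218, without C57BL/6J replicate 4 on 44% fat).

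Lep, the satiety hormone, went the same way without passing. It was 196, 862, 364 and 141 CPM in C57BL/6J on 10% fat and 653, 852, 1620 and 1280 CPM on 44% fat. In NZO/HlLtJ it was 1270 to 2160 CPM on 10% and 1970 to 2800 CPM on 44% fat. Replicate 2 of C57BL/6J on 10% fat lay within the 44% range, and the difference was -1.11 (SE 0.68, adjusted p 0.333), or -1.85 without that library (adjusted p 0.0647). Npr3, the natriuretic peptide clearance receptor, showed the same library, 195, 830, 309 and 172 CPM on 10% fat in C57BL/6J (difference -1.15, SE 0.57, adjusted p 0.211). Without that library Npr3 differed by -1.89 and was called (adjusted p 0.0163).

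Of 30 genes of fat biology named whatever their values, 10 were called and 20 were not, where 9.41% of all genes tested were called. Regulators of the adipocyte programme were among the 20: Pparg, the master regulator, at -0.45 (SE 0.26, adjusted p 0.308), Cebpa, its partner, at -0.28 (SE 0.13, adjusted p 0.194), Srebf1 at -0.43 (adjusted p 0.368) and Mlxipl at -0.30 (adjusted p 0.659), both activators of lipogenesis. The enzymes Acaca at -0.97 (SE 0.47, adjusted p 0.199) and Scd1 at -0.58 (SE 0.31, adjusted p 0.243) did not pass, nor did Irs2 at -0.67 (adjusted p 0.275), the insulin receptor gene Insr at -0.24 (adjusted p 0.351) and the triglyceride lipase Pnpla2 at -0.31 (adjusted p 0.321). Pnpla2 fell in both strains, by 0.77 log2 in NZO/HlLtJ (adjusted p 4.96e-05) and by 0.47 in C57BL/6J (adjusted p 0.0236).

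Cyp2e1, a cytochrome P450 that oxidises ethanol and acetone, on chromosome 7 (140763739 to 140774975), was 395, 694, 988 and 621 CPM in NZO/HlLtJ on 10% fat and 45.9, 16.5, 22.8 and 10.4 CPM on 44% fat, a 28.2-fold fall. The C57BL/6J libraries held 6350, 1770, 4500 and 6380 CPM and then 2580, 1550, 1340 and 1470 CPM, a 2.74-fold fall with overlap at replicate 2 on 10% fat. It is 1 of the 2 genes that fell in both strains and still differed (-3.37, SE 0.65, adjusted p 0.000892). Klf14, a transcription factor gene of fat metabolism on chromosome 6, fell in NZO/HlLtJ from 4.04 to 7.31 CPM to 1.25 to 2.76 CPM and rose in C57BL/6J from 1.35 to 2.64 CPM to 1.81 to 12 CPM (difference -3.32, SE 0.62, adjusted p 0.000678).

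Rnase2a, a ribonuclease of the eosinophil family, had the lowest value of the genes named by size, -6.26 (SE 1.2, adjusted p 0.0009). In NZO/HlLtJ it fell from 26.3, 21.9, 29.8 and 40.3 CPM to 16.2, 4.80, 5.91 and 5.99 CPM. C57BL/6J libraries had 1 to 3 counts per library on 10% fat and 4 to 59 on 44% fat, so the size of the fitted rise there depends on very few counts. The fitted value depends on the prior count and is given without a fold. Hist2h2aa2, a histone gene, was similar at -4.30 (adjusted p 0.00851), with 0 to 1 counts per C57BL/6J library on 10% fat and 2 to 7 on 44% fat, against 100 to 135 CPM and 61.4 to 88.5 CPM in NZO/HlLtJ. Hist2h2aa1, its near-identical neighbour on chromosome 3, was present in both strains and differed by -1.28 (adjusted p 1.43e-05). Reads of this histone pair can be shared between the copies, so their separate values are uncertain.

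Other genes named for low values were D430019H16Rik at -3.02, Cacna1e, a calcium channel subunit, at -2.94, Vstm2b at -2.94, Prrt4 at -2.93 and Phyhip at -2.61. Vstm2b, Prrt4, Phyhip and Cacna1e fell in NZO/HlLtJ, and D430019H16Rik and Cacna1e rose in C57BL/6J. Cacna1e and Phyhip were not called without the 2 muscle-high libraries (adjusted p 0.0551 and 0.0714). D430019H16Rik rose in C57BL/6J from 1.44 to 2.84 CPM to 3.19, 12.4, 13.4 and 16.8 CPM, without overlap (adjusted p of the difference 2.91e-05).

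Of the other genes named for high values, Ptn, the growth factor pleiotrophin, was 18.8, 2.97, 17.5 and 13.0 CPM in C57BL/6J on 10% fat and 2.82, 3.66, 2.35 and 3.48 CPM on 44% fat. In NZO/HlLtJ it rose from 0.725, 0.466, 0.406 and 0.447 CPM to 0.985, 1.89, 1.83 and 1.89 CPM. Again C57BL/6J replicate 2 on 10% fat lay with the 44% group, and the difference was 3.77 (SE 0.70, adjusted p 0.000677). Pcp4l1, a small calmodulin-related protein, differed by 3.17 (SE 0.47, adjusted p 6.08e-05), rising in NZO/HlLtJ from 0.536 to 0.787 CPM to 2.26 to 4.36 CPM. Serpina3k, a serine protease inhibitor, differed by 3.57 (adjusted p 0.0126), Rgs1, a regulator of G protein signalling in immune cells, by 3.15 (adjusted p 0.00503, and 0.0998 without the 2 muscle-high libraries) and Acot1, an acyl-CoA thioesterase, by 2.97 (adjusted p 0.00168). Serpina3k and Acot1 fell in C57BL/6J, by 3.01 and 2.08 log2, and did not pass in NZO/HlLtJ, whereas Rgs1 rose in NZO/HlLtJ by 1.71 log2.

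Another 10 genes were named because both diet effects were called and opposed. Atp6v0e2, a subunit of the vacuolar proton pump, had the smallest p of them: it fell in NZO/HlLtJ from 28.2, 27.2, 27.2 and 29.2 CPM to 11.8, 10.9, 10.1 and 12 CPM. The C57BL/6J level rose from 29.3, 46.0, 29.8 and 28.8 CPM to 47.1, 47.1, 46.2 and 54.7 CPM. Neither strain's diets overlapped, and the strains did not overlap on 44% fat (difference -1.86, SE 0.20, adjusted p 2.51e-07). Popdc2, a cAMP-binding membrane protein, at -2.07 (adjusted p 1.43e-05) and Drosha, the nuclease that starts microRNA processing, at -0.69 (adjusted p 1.43e-05) did the same. Drosha was 58.8 to 64.7 CPM and then 40.1 to 50.2 CPM in NZO/HlLtJ, and 51.5 to 64.5 CPM and then 64.7 to 68.5 CPM in C57BL/6J.

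In the other direction, Cdk6, a kinase of the G1 phase, rose in NZO/HlLtJ from 18.7, 24.1, 27.0 and 26.1 CPM to 35.7, 56.8, 55.5 and 45.7 CPM. The C57BL/6J level fell from 30.0, 29.3, 44.7 and 33.9 CPM to 23.5, 19.5, 25.6 and 20.1 CPM. No groups of one strain overlapped (difference 1.65, SE 0.23, adjusted p 2.5e-05). Syngr1, a vesicle protein, at 1.69 (adjusted p 9.05e-05), Slc6a6, the taurine transporter, at 1.49 (adjusted p 0.000199) and Rnf166, a ubiquitin ligase, at 0.61 (adjusted p 0.000155) were also higher. These 4 genes stayed called without the 2 muscle-high libraries (adjusted p 0.000927, 0.000927, 0.00612 and 0.00166).

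The same contrast in males, on 16 other libraries, called 401 genes (2.14% of those tested), 188 higher (1%) and 213 lower (1.13%). The female minus male difference was called for 703 (3.75%), 441 higher (2.35%) and 262 lower (1.40%) in females. In males the cell cycle list gave 0 higher and 1 lower call of 20 (median -1.15), with 16 lower at an unadjusted p below 0.05. The adipocyte and macrophage lists gave 0 calls by edgeR, with 3 higher and 3 lower of 24, and 2 higher and 5 lower of 20, at an unadjusted p below 0.05 (medians 0.01 and -0.43). At that unadjusted threshold edgeR put 3792 of all 18769 genes tested in males. The difference between the sexes was called for 4 adipocyte, 9 macrophage, 6 lysosome and 10 cell cycle genes. Adipoq differed by 0.24 in males (adjusted p 0.455), and the sex difference was -1.53 (adjusted p 0.00196). Cdk1 differed by -1.51 in males (adjusted p 0.0291), opposite to females, and its sex difference was 3.26 (adjusted p 0.00241). Outside ORSAM77, NZO/HlLtJ males on 10% fat came from ORSAM88 and those on 44% fat from ORSAM81, the reverse of the females. A difference between these ranges would enter the female and male values with opposite signs. In those libraries it cannot be told apart from a sex difference. With the range as a term, the sex difference was called for 580 genes, 521 of them among the 703.

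The genes named for a sex difference included, on the high side, Atp2a1 at 10.0, the muscle gene described above, Tm4sf19, a tetraspanin-like gene, at 7.20, Rgs1 at 5.31 and Ptx3, a pentraxin of innate immunity, at 5.18. Ptx3 rose in NZO/HlLtJ females from 5.22, 3.21, 5.84 and 3.68 CPM to 26.6, 40.7, 33.2 and 24.8 CPM, with 0.843 to 2.75 CPM in C57BL/6J. Its female difference of 2.28 (SE 0.67, adjusted p 0.0261) was lost without C57BL/6J replicate 1 on 10% fat, C57BL/6J replicate 2 on 44% fat or NZO/HlLtJ replicate 2 on 44% fat (adjusted p up to 0.0899), and the male value was -2.90 (adjusted p 0.0148). Tm4sf19 had 0 to 5 counts per C57BL/6J female library, and its female difference, 2.56 (SE 1.61), did not pass (adjusted p 0.344) and was 0.70 without C57BL/6J replicate 2 on 10% fat (adjusted p 0.939).

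On the low side stood Cxcl13, the B cell chemokine, at -6.18, Nnat at -3.50, Mmp9 at -3.47 and Fam13a, linked to fat distribution, at -2.71. Cxcl13 was 30.2 CPM in C57BL/6J replicate 3 on 44% fat and 2.11 to 2.79 CPM in the other 3, and its female difference did not pass (-2.11, adjusted p 0.277). It was -0.21 without that library (adjusted p 0.947). The female difference of Fam13a did not pass either (-0.84, adjusted p 0.39), and was -0.29 without NZO/HlLtJ replicate 3 on 10% fat. Rnase2a at -5.40, Klf14 at -2.58, Syngr1 at 1.42, Hist2h2aa1 at -0.92, Sod3 at -0.78 and Popdc2 at -0.95 were called in males too, in the direction of females (adjusted p 0.0029, 0.0229, 0.00622, 0.00573, 0.0244 and 0.0499). Their sex differences did not pass, the lowest adjusted p being 0.0848 for Popdc2.

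**Figure D5:**
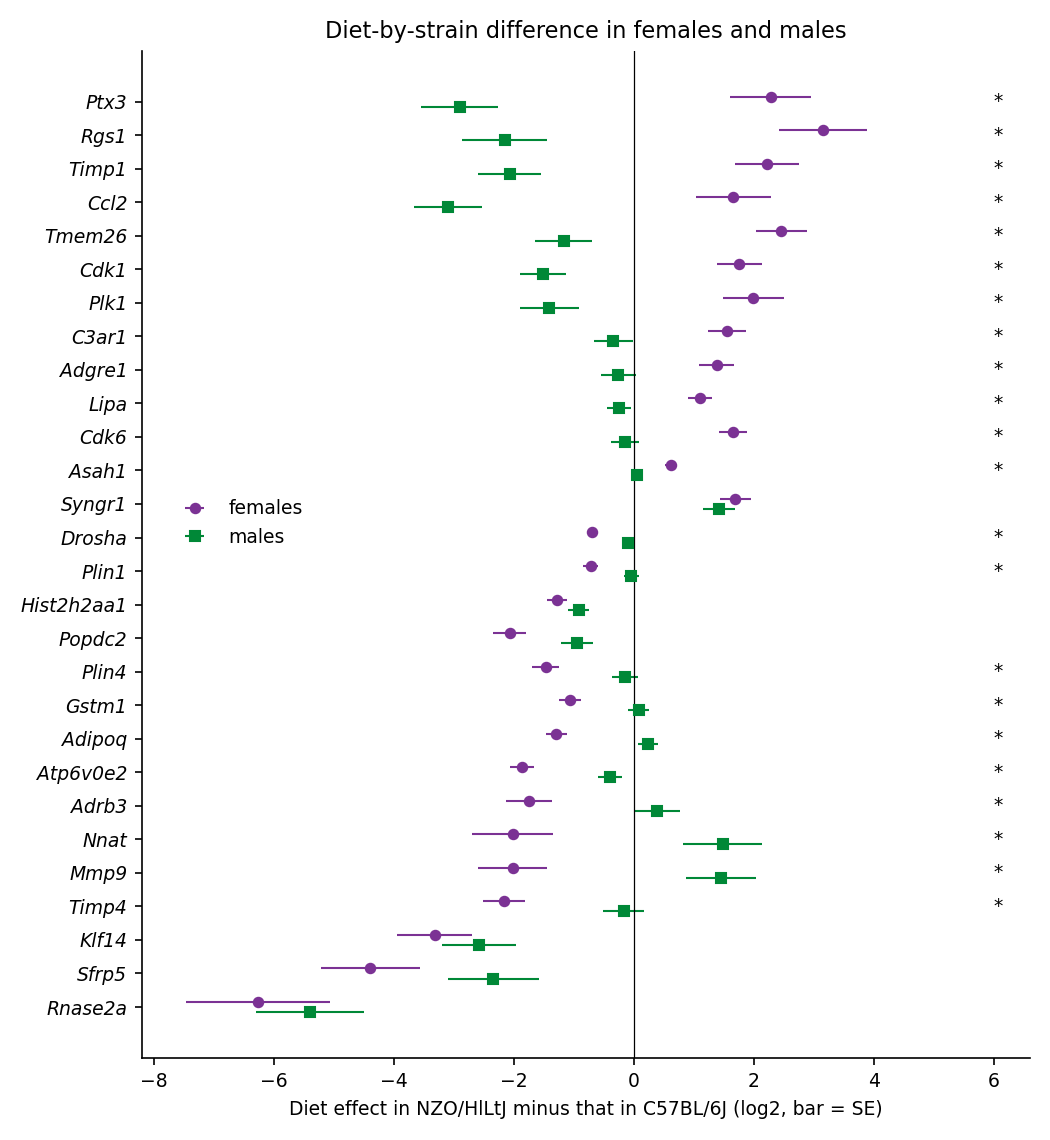
Diet effect in NZO/HlLtJ minus that in C57BL/6J (log2, with its SE) in females (circles) and males (squares) for 28 named genes; a star marks genes whose female and male values differ at an adjusted p below 0.05. Ptx3, Rgs1, Timp1, Ccl2 and Cdk1 lie on opposite sides of 0 in the sexes, and Syngr1, Hist2h2aa1, Klf14 and Rnase2a lie on the same side without a star.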

How the data were processed

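Whole gonadal fat was sequenced as poly(A) RNA in 47 libraries of 12 groups. The deposited table held the authors' expected counts per gene, 21.5% of them not whole numbers, and a deposited log2 table was used for one alternative only. Per the submitters' processing notes, GRCm38 and DESeq2 were named, without a role; the aligner and the counting tool: not given in sources used here. Expected counts were rounded, scaled by TMM factors, filtered with filterByExpr (minimum count 10) and fitted with edgeR 4.0.16 (R 4.3.3) by its quasi-likelihood test, with 12 group means and 35 residual degrees of freedom. Adjusted p is Benjamini-Hochberg over all 18769 genes tested, with 0.05 as threshold. The script was tested on simulated counts.

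Named genes were, among the called protein-coding genes above a floor of 1 for mean log2 CPM, the 12 highest and 12 lowest, 5 opposed genes per direction, 4 per direction for the sex difference, a panel of 30, and up to 3 called members per list (at most 2 per direction). A few genes that met these rules are not reported here. The 39 lists, the panel and the comparison itself were chosen with earlier results of these data known. Promoters came from RefSeq (12486 genes matched). Alternatives used DESeq2 1.42.0, limma 3.58.1, other scalings and filters, and fewer libraries. Depths of 29533647 to 47490505 counts leave library spread, not counting error, as the main limit except for genes with few counts.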

Additional observations from a re-analysis of the deposited data

Results flagged for a closer look

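Among 448 checks of a gene's 4 values within a group, 35 had 1 library far from the other 3 by Dixon's criterion, which flags about 1 in 20 groups by chance. Values are in CPM, and the library is named by its replicate.

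Replicate 1 of C57BL/6J on 10% fat stood apart for Cebpa at 564 (others 577 to 579). Replicate 2 of C57BL/6J on 10% fat stood apart for Fcgr4 at 3.06 (others 1.46 to 1.65), Sfrp5 at 3.86 (others 1.68 to 1.83), Atp6v0e2 at 46 (others 28.8 to 29.8) and Pnpla2 at 2340 (others 3050 to 3140). The same replicate, number 2 of C57BL/6J on 10% fat stood apart for Asns at 63.8 (others 81.9 to 82.4). Replicate 3 of C57BL/6J on 10% fat stood apart for Myh4 at 148 (others 0.0947 to 21.6), Atp2a1 at 78.4 (others 0.379 to 13.7), Eef1a2 at 6.64 (others 0.854 to 1.59) and Hist2h2aa2 at 0.0351 (others 0 to 0). The same replicate, number 3 of C57BL/6J on 10% fat stood apart for Pparg at 224 (others 150 to 151). Replicate 4 of C57BL/6J on 10% fat stood apart for Syngr1 at 10.4 (others 8.64 to 8.75).

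Replicate 1 of C57BL/6J on 44% fat stood apart for Atp2a1 at 0.399 (others 0.0498 to 0.103) and Cyp2e1 at 2580 (others 1340 to 1550). Replicate 2 of C57BL/6J on 44% fat stood apart for Asah1 at 86.2 (others 95.6 to 97), Drosha at 64.7 (others 67.9 to 68.5) and Tm4sf19 at 0 (others 0.0235 to 0.0258). Replicate 3 of C57BL/6J on 44% fat stood apart for Cxcl13 at 30.2 (others 2.11 to 2.79) and Mmp9 at 114 (others 30 to 39.5). Replicate 4 of C57BL/6J on 44% fat stood apart for Atp6v0e2 at 54.7 (others 46.2 to 47.1).

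Replicate 2 of NZO/HlLtJ on 10% fat stood apart for Lox at 70.6 (others 93.7 to 97.2). Replicate 3 of NZO/HlLtJ on 10% fat stood apart for Cacna1e at 71.5 (others 25.1 to 31.8), Nnat at 425 (others 238 to 269), Srebf1 at 247 (others 412 to 442) and Pnpla2 at 2380 (others 1930 to 1990). The same replicate, number 3 of NZO/HlLtJ on 10% fat stood apart for C1qa at 169 (others 132 to 136).

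Replicate 1 of NZO/HlLtJ on 44% fat stood apart for Ptn at 0.985 (others 1.83 to 1.89), Rnase2a at 16.2 (others 4.8 to 5.99) and Postn at 598 (others 735 to 763). Replicate 2 of NZO/HlLtJ on 44% fat stood apart for Myh4 at 2.52 (others 0.024 to 0.0873), Atp2a1 at 0.832 (others 0.262 to 0.347) and Elovl3 at 2.28 (others 0.677 to 0.867). Replicate 3 of NZO/HlLtJ on 44% fat stood apart for Otop1 at 27.9 (others 30 to 30.3). Replicate 4 of NZO/HlLtJ on 44% fat stood apart for Lipe at 922 (others 749 to 776) and C6 at 60.6 (others 49.9 to 51.5).

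The diet-by-strain difference was itself a difference between strains, called for 1766 genes. Of the 112 genes followed, 47 also had a different diet-by-strain value in females and males in edgeR's test of that difference (adjusted p below 0.05 over all genes tested, female minus male, log2). Over all genes tested the share was 3.75%. Many of the 112 were named for their female difference, which is part of the sex difference, or for the sex difference itself. The count of 47 is raised by that choice. Higher in females were Atp2a1 10.00 (adjusted p 0.03), Tm4sf19 7.20 (adjusted p 0.0383), Rgs1 5.31 (adjusted p 0.00423), Ptx3 5.18 (adjusted p 0.00267) and Ccl2 4.76 (adjusted p 0.00267). Next came Otop1 4.66 (adjusted p 0.0136), Timp1 4.29 (adjusted p 0.00265), Olr1 4.11 (adjusted p 0.0179), Ptn 3.77 (adjusted p 0.0481) and Tmem26 3.63 (adjusted p 0.00265). Then followed Col12a1 3.41 (adjusted p 0.00405), Plk1 3.40 (adjusted p 0.00757), Cdk1 3.26 (adjusted p 0.00241), Fcgr4 3.04 (adjusted p 0.0185) and Atf3 2.65 (adjusted p 0.0162). Smaller positive values were those of Mmp3 2.55 (adjusted p 0.021), C3ar1 1.89 (adjusted p 0.0148), Cdk6 1.81 (adjusted p 0.00274), Postn 1.75 (adjusted p 0.0109) and Col8a1 1.69 (adjusted p 0.00953). Above 0 as well were Adgre1 1.64 (adjusted p 0.0179), Lum 1.42 (adjusted p 0.0319), Lipa 1.34 (adjusted p 0.00757), C1qb 1.28 (adjusted p 0.0222) and Lox 1.28 (adjusted p 0.0439). Further positive values were Slc6a6 1.19 (adjusted p 0.0425), C1qa 1.06 (adjusted p 0.0317), Ddit3 1.00 (adjusted p 0.0415), Tgfb1 0.97 (adjusted p 0.0107) and Asah1 0.56 (adjusted p 0.0251).

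Lower in females were Cxcl13 -6.18 (adjusted p 0.0324), Nnat -3.50 (adjusted p 0.029), Mmp9 -3.47 (adjusted p 0.0133), Fam13a -2.71 (adjusted p 0.0481) and D430019H16Rik -2.32 (adjusted p 0.0186). Negative as well were Adrb3 -2.14 (adjusted p 0.0194), Timp4 -2.0 (adjusted p 0.0158), Gsta4 -1.75 (adjusted p 0.0143), Adipoq -1.53 (adjusted p 0.00196) and Atp6v0e2 -1.47 (adjusted p 0.00382). Closer to 0 were Plin4 -1.32 (adjusted p 0.0143), Irs1 -1.22 (adjusted p 0.038), Gstm1 -1.14 (adjusted p 0.0102), Mccc2 -0.86 (adjusted p 0.0137) and Lipe -0.71 (adjusted p 0.0457). The remaining negative values were Plin1 -0.68 (adjusted p 0.0348) and Drosha -0.60 (adjusted p 0.00869).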

How the results depend on the processing

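No paired analysis was possible because the labels carry no replicate numbers. For the female diet-by-strain comparison, RLE scaling (1676 genes), library totals (1517), limma (1963), DESeq2 (2124), no count filter (1611), the 16 libraries alone (2158), a robust fit (1767) and the sample-number range as a term (1544) gave counts within 1.5 times of 1766. DESeq2 gave 1002 genes in males, against 401, and 1082 for the sex difference, against 703.

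The alternatives that left out libraries moved counts most. ORSAM77 libraries alone gave 0 genes for the female comparison, 65 and 0 for diet in NZO/HlLtJ and C57BL/6J, 1522 and 3493 for strain on 10% and 44% fat, 3 for males and 0 for the sex difference. There C57BL/6J had 1 library per diet, assumed to vary like the other groups. Libraries outside ORSAM77 gave 201, 967, 145, 4122 (strain on 10% fat), 0 (males, edgeR) and 200 (sex difference). The next 3 alternatives were chosen after seeing the data. Without the 2 muscle-high libraries the counts were 596, 12 for diet in C57BL/6J, 4446 for strain on 10% fat and 278 for the sex difference. Without 4 libraries they were 356, 3, 4480 and 126. With NZO/HlLtJ females from ORSAM77 alone they were 932, 1643 for diet in NZO/HlLtJ and 359 for the sex difference.

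Leaving out 1 library gave 1174 to 2089 genes for the female comparison (2089 without C57BL/6J replicate 2 on 10% fat), 3020 to 3576 and 385 to 2474 for diet in NZO/HlLtJ and C57BL/6J, 5868 to 7002 and 7726 to 8070 for strain on 10% and 44% fat, 60 to 1448 for males and 344 to 1304 for the sex difference. Fewer libraries also give less power, and beyond that the cause was not tested.

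Of the 89 called genes followed through the alternatives, 62 stayed called in every fit without 1 library. The number was 51 without the 2 muscle-high libraries, 41 without the 4 libraries, 57 with NZO/HlLtJ females from ORSAM77 alone, 80 with the range term and 89 in DESeq2. Cd14, Cd9, Csf3r, Cd209a, Bnip3, Bmper, Zfp423 and Abcc9 were not among the 89, so whether their calls hold in these fits was not tested. Signs reversed in 6 fits: Cxcl13 at 1.26, Cidea at -1.11, Col6a3 at 0.44 and Otop1 at -0.10 within ORSAM77, Mlxipl at 0.04 outside it, and Trem2 at -0.05 without C57BL/6J replicate 2 on 10% fat (up to 0.97 over the fits without 1 library). Of these, Otop1 alone was called in the main test.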
